A study of Mus musculus with 80 samples.

Results

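The cytosolic ribosomal protein genes encode the protein part of the ribosome, and they were followed here across dose, chemical and tissue preparation in mouse liver. Members were taken by symbol, as genes whose symbol starts with Rpl or Rps followed by a digit, plus Rplp0, Rplp1, Rplp2 and Rpsa, leaving out pseudogenes and the Rps6 kinases. The rule gave 84 genes of 18877 in the DEHP table and 84 of 17672 in the DCA table, 50 of the large and 34 of the small subunit in each. Of these, 82 symbols were in both tables. The rule also takes in relatives that are not standard subunits, such as Rpl7l1, Rps19bp1, Rpl3l, Rps27l, Rpl22l1 and Rpl36al, and it leaves out Fau and Rack1, among others. A total of 83 members passed the filter on low counts in DEHP and in frozen DCA tissue, where Rpl3l did not, and 76 passed in fixed DCA tissue.

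The mice were B6C3F1 males (a hybrid strain common in toxicology), 4 weeks old per the labels. Di(2-ethylhexyl) phthalate (DEHP), a plasticizer that activates PPAR alpha in rodent liver, was mixed into feed for 7 days at 0, 1500, 3000 or 6000 ppm, with 4 animals per dose, and these livers date from 2013. Dichloroacetic acid (DCA), a drinking water disinfection by-product that inhibits pyruvate dehydrogenase kinase, was dissolved in drinking water at 0, 1, 2 or 3.5 g/L, with 6 animals per dose, and these livers date from 1994. How long DCA was given is not stated in the sources used here. From each animal, 1 library was made from frozen liver of mixed lobes and 1 from formalin-fixed, paraffin-embedded (FFPE) liver of specific lobes, so that preparation and lobe cannot be told apart. The 80 libraries hold total RNA depleted of ribosomal RNA.

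Ribosomal proteins are assembled with ribosomal RNA in the nucleolus, and a growing cell makes them in matched amounts. Most of their messenger RNAs start with a short run of pyrimidines at the transcription start (a 5′ TOP motif), through which the kinase mTORC1 and the protein Larp1 control translation. Hepatocytes export most plasma proteins and are rich in ribosomes. In bulk tissue, fewer cells of a type and less RNA per cell cannot be told apart.

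To show how the start sites look, 30 bases were read from RefSeq promoters (GRCm38.p6) for members picked by hand, most of them named in the results below. Each run holds the 10 bases before the annotated start and 20 from it, on the transcribed strand, and the motifs CTTTC and TTTCC are in capitals.
Rplp2 (chr7:141447641-141447670, plus strand): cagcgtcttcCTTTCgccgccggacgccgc
Rps10 (chr17:27635225-27635254, minus strand): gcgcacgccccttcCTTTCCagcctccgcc
Rpl28 (chr7:4792955-4792984, plus strand): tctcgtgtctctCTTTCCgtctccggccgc
Rpl35 (chr2:39005112-39005141, minus strand): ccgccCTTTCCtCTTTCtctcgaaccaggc
Rps26 (chr10:128626487-128626516, minus strand): gcaagccgccggatcctCTTTCgagtcttg
Rps27 (chr3:90213629-90213658, minus strand): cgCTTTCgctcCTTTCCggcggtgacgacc
Rps27l (chr9:66946076-66946105, plus strand): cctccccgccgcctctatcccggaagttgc
Rpl22l1 (chr3:28805498-28805527, plus strand): gcgcaagcccgttctcttcccacggctgca
Rpl36a (chrX:134585644-134585673, plus strand): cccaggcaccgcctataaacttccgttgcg
Rpl39 (chrX:37085203-37085232, minus strand): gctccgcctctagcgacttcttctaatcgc
Of 86 member symbols, 63 had a promoter in the RefSeq table. Within 20 bases on either side of the start, CTTTC or TTTCC (which overlap in CTTTCC) stood on the transcribed strand in 22 of 63 members, or 34.9%, and in 9.44% of the 26962 other genes. Counting either strand, the shares were 41.3% and 17.3%. Over the whole 300 bases and on either strand, CCGGAAG, the ETS core, was in 38.1% of members and 9.05% of other genes. AAGATGGC, the YY1 letters, was in 7.94% and 2.87%, and GGGCGG, the Sp1 letters, in 61.9% and 35.8%. Rps27l, Rpl22l1, Rpl36a and Rpl39 had none of the CTTTC or TTTCC letters in the printed window, while Rps27, the closest relative of Rps27l, had both. Even the wider search found these letters in only 22 of 63 members, so most members lacked them. Pyrimidine runs with other letters were not counted. The search thus does not say which members carry a 5′ TOP motif. Since the printed members were picked by hand, a contrast among them does not describe members as a set. A match is a description of letters only.

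Members took a small and steady share of the counts in 3 of the 4 sets. It was 0.814% to 1.20% in frozen DEHP libraries (16583000 to 29550600 counts in all), 0.654% to 0.916% in FFPE DEHP libraries (11673000 to 18866100 counts) and 0.828% to 1.08% in frozen DCA libraries (3067670 to 16890000 counts). The FFPE DCA libraries were shallow, with 109292 to 8434620 counts (median 504136), of which the ribosomal RNA precursor Rn45s took 4.89% to 84.2%. There the members' share was 0.0326% to 0.713%, and 1 to 76 of the 84 members were at 0 in a library (median 16). Hepatocyte markers were abundant in frozen liver, at 41639 to 71470 summed CPM (counts scaled to library size with TMM) in DEHP and 51645 to 105524 in DCA over 6 of 6 genes.

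Per length, in the deposited FPKM values of frozen controls, the 77 canonical members spanned a wide range. The median was 153 FPKM in the DEHP controls (n = 4) and 189 FPKM in the DCA controls (n = 6). Rpl10, an X-linked large-subunit protein, was highest in DEHP controls at 394 ± 7.2 FPKM (SD), and Rpl41, the smallest ribosomal protein, was highest in DCA controls at 526 ± 81 FPKM. The order of levels was alike in the 2 sets of controls (Spearman's rho 0.882 across genes, which are not independent replicates). Rpl34 went against this order, with 3.56 FPKM in DEHP and 127 FPKM in DCA. In the DEHP table its processed copy Rpl34-ps1 had a mean count of 1117 in frozen libraries. The part of this copy in the low value of Rpl34 was not tested. Copies of this kind are a limit for many members, since RSEM divides ambiguous reads: 40.3% of member values were not whole in the DEHP table and 9.25% in the DCA table.

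Relatives of canonical members differed from their partners in level. Rps27l was at 144 ± 14 FPKM in DEHP controls and 134 ± 17 FPKM in DCA controls, against 329 ± 40 FPKM and 381 ± 71 FPKM for Rps27. Rpl22l1 was at 44.3 ± 13 FPKM and 73.6 ± 10 FPKM, against 31.2 ± 3.0 FPKM and 23.9 ± 1.1 FPKM for Rpl22, so the relative had the higher mean in both sets. The libraries of the pair overlapped in the DEHP controls (24.8 to 53.7 FPKM for Rpl22l1 and 28.4 to 35.4 FPKM for Rpl22) and not in the DCA controls. Rpl3l, the striated muscle form of Rpl3, was at 0.09 FPKM and 0.65 FPKM.

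With DEHP most ribosomal protein genes had small positive changes, and in frozen liver few passed the test. In each comparison a gene is called at a Benjamini-Hochberg adjusted p under 0.05 over all genes tested (edgeR's quasi-likelihood test, 2-sided). At 1500 ppm no member was called in frozen liver by edgeR or by DESeq2, 1 had an unadjusted p under 0.05, and 4.34% of all genes were called higher. At 3000 ppm 6 of 83 members rose and none fell, beside 8.17% of all genes called higher. At 6000 ppm 1 of 83 rose and none fell, beside 7.05%. The median log2 change over members was 0.02, 0.14 and 0.18 at the 3 doses, against -0.03, -0.03 and -0.03 over all genes tested. At 6000 ppm 76 of 83 members had a positive change. All 4 libraries lay above every control for 26 members at 3000 ppm, beside 10.8% of all genes, and for 7 members at 6000 ppm, beside 8.14%.

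**Figure D1:**
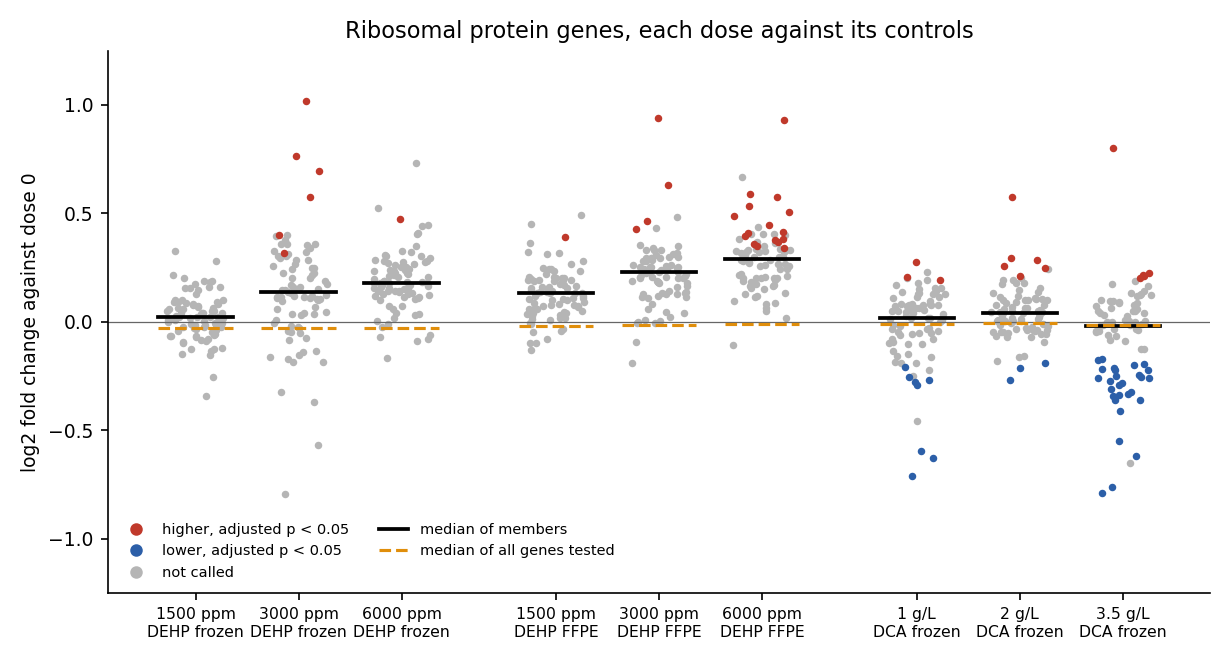
Log2 fold change of each ribosomal protein gene against dose 0 (vertical axis) for each dose of DEHP in frozen and FFPE liver and of DCA in frozen liver (horizontal axis). Each point is a gene, red and blue points are called higher and lower, the black bar is the median of members and the dashed bar that of all genes tested. The DEHP clouds sit above 0 in FFPE liver, and the cloud at 3.5 g/L DCA has 28 blue points.

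Rpl36a, an X-linked protein near the exit site for transfer RNA, was the member called at both higher doses in frozen liver. Its controls were at 51.4, 50.3, 52.1 and 50.2 CPM, the 3000 ppm livers at 67.7, 84.0, 73.2 and 79.5 CPM, and the 6000 ppm livers at 53.3, 74.9, 77.0 and 78.0 CPM. The groups did not overlap, although animal 29B at 6000 ppm lay just above the controls. The log2 change was 0.58 ± 0.12 (SE) at 3000 ppm, with an adjusted p of 0.00406 in edgeR, and 0.47 ± 0.12 at 6000 ppm, with an adjusted p of 0.0155.

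Rpl39, an X-linked protein lining the exit tunnel, rose by 0.77 ± 0.16 at 3000 ppm (adjusted p = 0.00511, edgeR). Controls were at 61.2 to 70.6 CPM and the 4 livers at 87.5, 146, 92.1 and 116 CPM, without overlap. At 6000 ppm its livers were at 63.9, 92.3, 101 and 88.3 CPM, and the change of 0.41 was not called (adjusted p = 0.118, edgeR). For Rpl39 animal 29B lay within the range of the controls.

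The relatives Rps27l and Rpl22l1 showed the same order of doses. Rps27l, a partner of Rps27 known as a p53 target, had controls at 68.9, 59.5, 59.0 and 60.8 CPM and 3000 ppm livers at 81.0, 126, 93.3 and 101 CPM. It rose by 0.70 ± 0.16 (adjusted p = 0.00892, edgeR). At 6000 ppm it was at 55.8, 84.3, 83.9 and 86.6 CPM and was not called (0.32, adjusted p = 0.219). Rpl22l1, the partner of Rpl22, had controls at 23.1, 21.1, 22.3 and 11.4 CPM and 3000 ppm livers at 31.6, 59.7, 32.9 and 34.4 CPM. It rose by 1.02 ± 0.26 (adjusted p = 0.0137, edgeR). At 6000 ppm it was at 19.04, 35.8, 43.9 and 31.3 CPM, with a change of 0.73 that was not called (adjusted p = 0.0742). The canonical partners were not called at these doses: Rps27 changed by 0.16 and -0.08, and Rpl22 by 0.39 and 0.21.

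**Figure D2:**
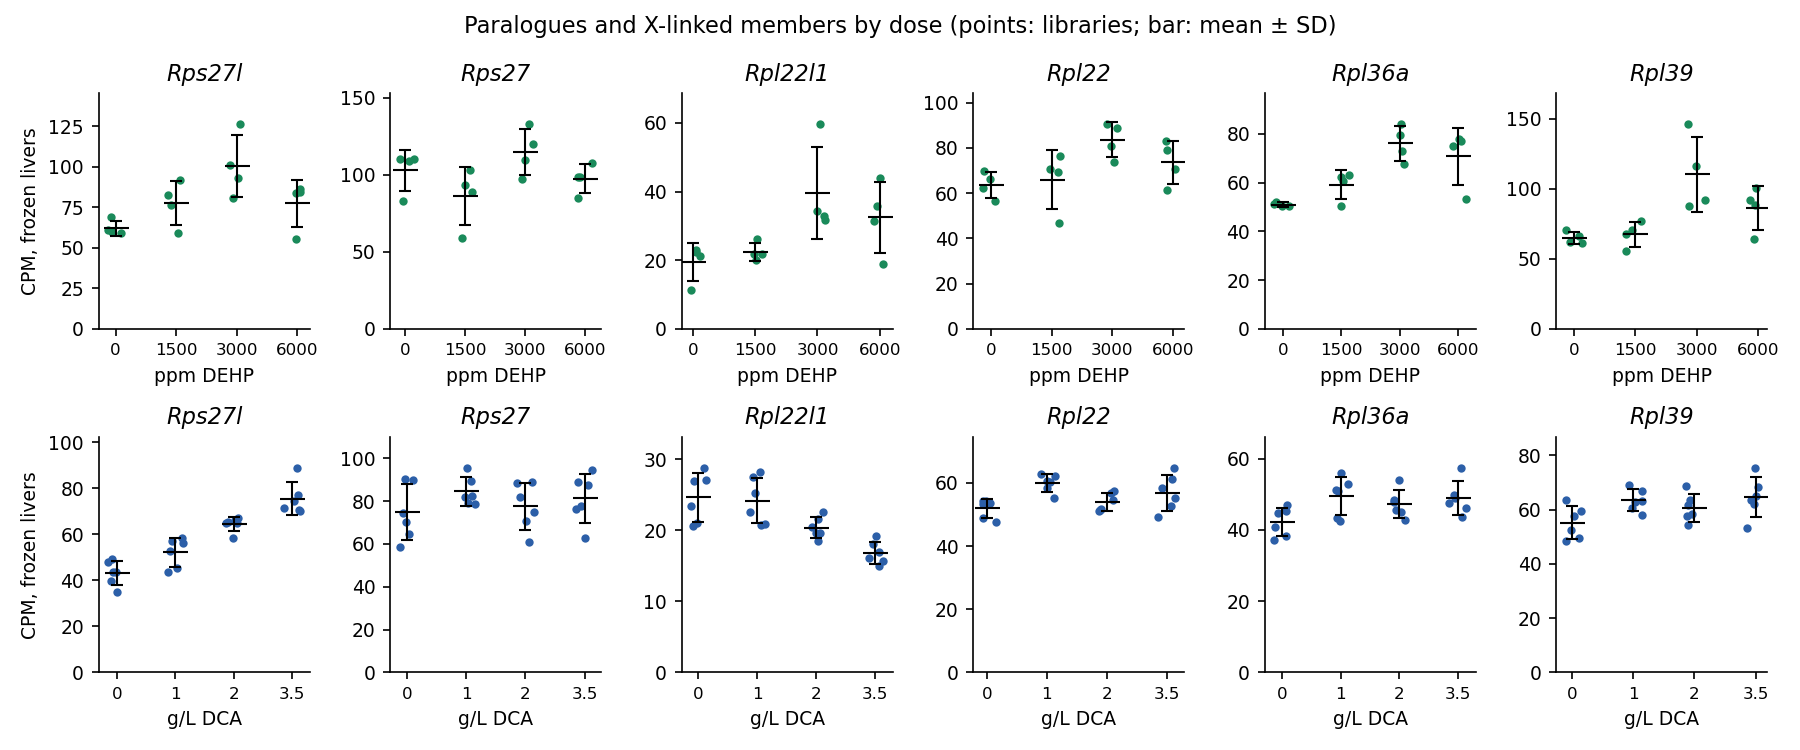
CPM in frozen livers (vertical axis, from 0) by dose (horizontal axis), DEHP in the upper panels and DCA in the lower, for relatives and X-linked members. Points are libraries and bars are mean ± SD. With DEHP the low point at 6000 ppm is animal 29B (Rps27l 55.8 CPM), and with DCA the Rps27l mean is highest and the Rpl22l1 mean lowest at 3.5 g/L.

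The other calls at 3000 ppm were Rpl32 (0.31) and Rpl13 (0.40), named after their values were seen. The stalk genes and other members with well-known roles were not called in frozen DEHP liver. Rplp0, the base of the stalk that recruits translation factors, changed by -0.03, -0.04 and 0.11 over the doses. Its partners changed by at most 0.40 (Rplp1 at 6000 ppm, adjusted p = 0.0993, edgeR) and 0.27 (Rplp2). Rps6, the substrate of the S6 kinases, changed by -0.12, 0.04 and -0.01, and Rpl3, at the peptidyl transferase centre, by 0.02, 0.03 and 0.13. Rpl5 and Rpl11, which bind Mdm2 together with 5S ribosomal RNA, changed by at most 0.22 and 0.28. Rpsa, also known as the laminin receptor, changed by -0.14, -0.17 and 0.03.

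Changes at 3000 ppm went with base composition, and the calls were lost with the prefix of the column names as a term. Across members, the change at 3000 ppm went with transcript GC content at r = -0.51, and across the other genes at r = -0.25 (descriptions across genes of the same libraries). Members called higher had a median GC content of 48.9%, against 50.9% over members. With offsets corrected for GC content, chosen after seeing the data, 9 members were called, among them Rpl36a (0.55), Rpl39 (0.73), Rps27l (0.56) and Rpl22l1 (0.86). The column names of the count table start with a prefix that libraries share, which was read here as a sequencing run, although the headers do not say what it is. With this prefix as a term, no member was called at 3000 ppm (Rpl36a adjusted p = 0.0671, Rpl39 0.103, Rps27l 0.155, Rpl22l1 0.180, edgeR). Prefix and dose are partly confounded, and the part of the prefix in the result was not tested beyond this term. DESeq2 called 13 members at 3000 ppm and 3 at 6000 ppm, and the other deposited count tables gave 11 and 3. For these and the other alternatives in this paragraph the share of all genes called is not given. At 6000 ppm the count rested on single libraries: without animal 29B 17 members were called, without 44A or 8C none was, and without 67C, 3A or 64C 3, 2 and 2 were. At 3000 ppm the count was 14 without 35A, 11 without 29B and 3 without 67C.

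In FFPE liver of the same DEHP animals 16 members rose at 6000 ppm, and fewer at the lower doses. At 1500 ppm 1 of 83 was called higher, beside 4.55% of all genes, at 3000 ppm 4, beside 6.15%, and at 6000 ppm 16, beside 7.94%. The count at 6000 ppm was 4 in a fit of those 2 groups alone, 7 with the other deposited count tables, 10 without a filter on low counts, and 26 with DESeq2 or with GC-corrected offsets. At 3000 ppm these settings gave 0, 1, 3, 10 and 10, and the prefix of the column names as a term gave 2. The shares of all genes above hold for the first fit only and are not given for these settings. No member was called lower at any dose. The 16 genes were 7 of 49 large-subunit and 9 of 34 small-subunit members. The median log2 change was 0.13, 0.23 and 0.29, against -0.02, -0.02 and -0.01 over all genes, and 82 of 83 members had a positive change at 6000 ppm. All 4 libraries at 6000 ppm lay above every control for 28 members, beside 8.6% of all genes. The count at 6000 ppm was 6 without the control 45C or the treated 44A or 64C, and 9 without the control 75A, and that at 3000 ppm was 1 without 45C, 75A, 35A or 9A.

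Rpl41 and Rps26 had the smallest adjusted p at 6000 ppm. Rpl41 was at 117, 111, 134 and 109 CPM in controls and 182, 199, 163 and 155 CPM at 6000 ppm, without overlap (0.57 ± 0.12, adjusted p = 0.00449, edgeR). Rps26, which sits at the messenger RNA exit channel, was at 36.1, 33.6, 41.9 and 41.6 CPM in controls and 49.3, 58.4, 60.2 and 54.1 CPM at 6000 ppm (0.54 ± 0.11, adjusted p = 0.00495, edgeR). It was the only member called at all 3 doses in FFPE liver, with 0.39 at 1500 ppm (adjusted p = 0.0496) and 0.47 at 3000 ppm (adjusted p = 0.0139). All its treated libraries, at 43.3 CPM or more, lay above every control. The call at 1500 ppm was lost when any of 14 of the 16 libraries was left out.

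Of the stalk genes, Rplp1 and Rplp2 rose in FFPE liver at 6000 ppm. Rplp1 went from 74.1, 80.4, 92.2 and 87.3 CPM to 142, 140, 120 and 100 CPM (0.59 ± 0.13, adjusted p = 0.00616, edgeR). Rplp2 went from 39.6, 40.6, 42.0 and 37.0 CPM to 60.9, 67.9, 55.7 and 41.4 CPM (0.51 ± 0.15, adjusted p = 0.0368), so 1 treated library lay within the controls. Rplp0 changed by 0.33 and was not called (adjusted p = 0.134). Rpl11 rose by 0.38 (adjusted p = 0.0203), with all 4 libraries above the controls. Rps4y2, a little expressed relative of Rps4x, rose by 0.93 (adjusted p = 0.0105) from 1.95 to 2.45 CPM in controls to 3.40 to 5.63 CPM. Among the remaining calls, named after their values were seen, were Rps28, Rps4x, Rpl15, Rps10, Rpl12, Rps7, Rps19 and Rpl37, with changes of 0.34 to 0.49.

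At 3000 ppm in FFPE liver the calls included Rps26, Rps27l and Rpl22l1. Rps27l was at 33.3, 29.0, 36.2 and 31.1 CPM in controls and 64.5, 39.8, 40.9 and 55.2 CPM at 3000 ppm (0.63 ± 0.16, adjusted p = 0.0204, edgeR). Rpl22l1 was at 12.3, 10.7, 17.5 and 10.6 CPM in controls and 34.2, 17.4, 15.4 and 31.2 CPM at 3000 ppm (0.94 ± 0.27, adjusted p = 0.0379), so the groups overlapped. Both were thus called at 3000 ppm in each preparation. In FFPE liver the call was lost in 6 of 27 alternatives for Rps27l and in 9 of 27 for Rpl22l1. The animals highest in FFPE liver were 35A and 9A, whereas 67C and 9A were highest in frozen liver. Over non-member genes the deviations of these libraries went with GC content at r = -0.53 and -0.50 in FFPE liver. The values were -0.52 and -0.20 in frozen liver, and the part of GC content in these 2 FFPE calls was not told apart here. Frozen and FFPE libraries of 35A and 67C deviated together only weakly over all genes (r = 0.066 and 0.086, against a median of 0.388 over the 16 animals).

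The difference of the 6000 ppm change between preparations was tested directly, with the animal as a block. No member was called by edgeR or DESeq2, 0 had an unadjusted p under 0.05, and 0% of all genes were called. The median difference, FFPE minus frozen, was 0.11 over members and 0.03 over all genes. The larger number of calls in FFPE liver is therefore not shown to be a larger change. Markers of dividing cells (4 of 4 measured) summed to 5.24 to 11.6 CPM in frozen controls and 12.5 to 100 CPM at 6000 ppm, and hepatocyte markers to 54750 to 71470 CPM and 41639 to 57079 CPM. Their part in the changes was not tested.

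With DCA some ribosomal protein genes fell while others rose. In frozen liver at 3.5 g/L 28 of 83 members fell and 5 rose, beside 21.1% of all genes called lower and 21.9% called higher. The falls were spread over both subunits, at 17 of 49 large-subunit and 11 of 34 small-subunit members. The median change over members was -0.02, as over all genes (-0.02), since 36 members had a positive and 47 a negative change. All 6 libraries lay below every control for 16 members, beside 9.42% of all genes, and above every control for 1 member, beside 11.3%. At 1 g/L 3 members rose and 8 fell, beside 4.11% and 7.01% of all genes. At 2 g/L 6 rose and 3 fell, beside 15.5% and 13.7%. The 11 calls at 1 g/L became 20 without animal 49, 7 with GC-corrected offsets, and 4 to 7 without 52, 54, 51 or the controls 3 or 6. The 9 calls at 2 g/L became 14 without 77, 4 without 73 or 75, 5 without the control 3, and 3 without 3 shallow libraries. Shares of all genes are not given for these alternatives.

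Rps27l was called higher at every dose of DCA. Its lowest, median and highest frozen libraries were 34.9, 43.7 and 49.4 CPM in controls, 43.8, 54.6 and 58.2 CPM at 1 g/L, 58.4, 65.1 and 67.2 CPM at 2 g/L, and 70.1, 73.0 and 89.0 CPM at 3.5 g/L. The controls overlapped with 1 g/L, and the 2 higher doses overlapped with neither the controls nor each other. The log2 change was 0.27 ± 0.08, 0.57 ± 0.08 and 0.80 ± 0.08, with adjusted p of 0.0353, 1.63e-05 and 3.46e-08 (edgeR). Rps27 had no call at any dose (0.18, 0.05 and 0.12, adjusted p = 0.386 at 3.5 g/L), and its libraries overlapped between all groups.

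Rpl22l1 went the other way. Its frozen libraries had a mean of 24.6 ± 3.4 CPM (SD, n = 6) in controls, 24.2 CPM at 1 g/L, 20.4 CPM at 2 g/L and 16.8 ± 1.6 CPM at 3.5 g/L. All 6 livers at 3.5 g/L, with 14.9 to 19.1 CPM, lay below every control (20.6 to 28.8 CPM). The change was -0.03, -0.27 (adjusted p = 0.0389) and -0.55 ± 0.09 (adjusted p = 3.7e-05, edgeR). Rpl22 changed by 0.21 (adjusted p = 0.0288), 0.05 and 0.13. The 2 relatives that were both called higher at 3000 ppm DEHP were thus called in opposite directions at 3.5 g/L DCA.

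Rpl36, Rplp1 and Rplp2 had the largest called falls at 3.5 g/L, and Rplp0 fell with them. Rplp1 was at 96.0 to 118 CPM in controls and 49.2 to 84.5 CPM at 3.5 g/L, without overlap (-0.76 ± 0.15, adjusted p = 0.000257, edgeR). Rplp2 was at 48.5 to 64.0 CPM and 28.9 to 47.7 CPM (-0.62 ± 0.14, adjusted p = 0.000846). Rplp0 was at 282 to 324 CPM and 210 to 254 CPM (-0.36 ± 0.07, adjusted p = 0.000344). Rpl36, a large-subunit protein named after its values were seen, was at 38.5 to 55.0 CPM and 20.0 to 40.0 CPM, with 1 treated library within the controls (-0.79 ± 0.18, adjusted p = 0.00109). All 3 stalk genes were thus below every control in all 6 livers.

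These 4 genes did not follow the order of doses. At 1 g/L the changes were -0.60 for Rplp1, -0.63 for Rplp2, -0.27 for Rplp0 and -0.71 for Rpl36, all called. At 2 g/L they were -0.03, 0.04, -0.07 and -0.01, none called. With the prefix as a term, none of the 8 falls at 1 g/L was called. In frozen DCA liver only animals 53 and 54, both at 1 g/L, have another prefix than the rest. With the term, the change at 1 g/L thus rests on the other livers of that dose, animal 49 among them. At 1 g/L the library of animal 49 stood apart: it had 116 CPM of Rplp1, while the other 5 had 48.8 to 74.1 CPM. It also had 56.0 CPM of Rplp2 against 26.3 to 36.6 CPM, and 46.0 CPM of Rpl36 against 20.8 to 30.7 CPM. Animal 49 was the only liver at 1 g/L whose column name has the prefix and the L code of all 6 controls. The headers do not say what the L codes stand for.

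**Figure D3:**
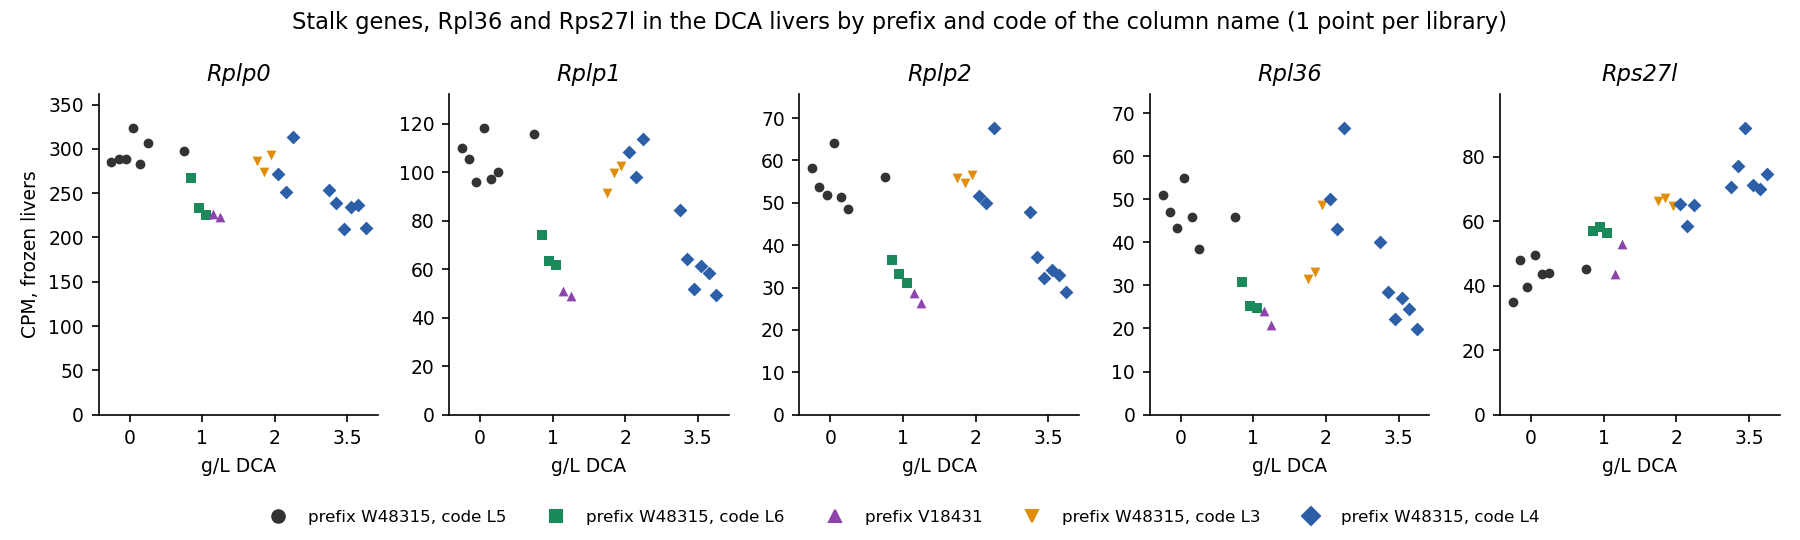
CPM in frozen livers (vertical axis, from 0) by DCA dose (horizontal axis) for stalk genes, Rpl36 and Rps27l, with 1 point per library and marker and colour giving the prefix and L code of the column name. At 1 g/L the point with the code of the controls (Rplp1 116 CPM) sits with the controls and the other 5 lie below them, while Rps27l is highest at 3.5 g/L (70.1 to 89.0 CPM).

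The L code of the column names and the base composition of libraries differed in part between the dose groups. The correlation of each library's deviation with GC content over non-member genes was 0.005 to 0.375 in controls and 0.339 in animal 49. It was -0.348 to -0.144 in the other 5 livers at 1 g/L, -0.054 to 0.297 at 2 g/L, and -0.233 to 0.047 at 3.5 g/L. Members called lower at 3.5 g/L had a median GC content of 52.0% and members called higher 48.7%. Within the L code that holds 3 livers at 2 g/L and all 6 at 3.5 g/L, 7 of 83 members were lower at 3.5 than at 2 g/L and none was higher, beside 3.57% of all genes called lower. Over all L codes 22 were lower, beside 5.13%. The 7 were Rplp1 (-0.79), Rpl36 (-0.98), Rplp2 (-0.67), Rpl12, Rpsa, Rpl8 and Rpl28. All controls carry another L code than the 3.5 g/L livers, so dose and code cannot be told apart in the comparison with controls.

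With offsets corrected for GC content, 20 members fell and 5 rose at 3.5 g/L, and the share of all genes is not given for this setting. Rplp1 (-0.57), Rplp2 (-0.52), Rplp0 (-0.31) and Rpl36 (-0.48) stayed called. Rps16, a small-subunit protein whose tail reaches the site of the peptidyl transfer RNA, fell by 0.41 with and without the correction (adjusted p = 1.09e-05 without it, edgeR). Its controls were at 49.1 to 62.5 CPM and its 3.5 g/L livers at 40.1 to 44.9 CPM, without overlap. Rps10, a beak protein of the small subunit, fell by 0.36 without the correction and changed by -0.05 with it (adjusted p = 0.727).

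Other members at 3.5 g/L changed by less. Rpsa fell by 0.25 and Rpl3 by 0.22, each with all 6 livers below every control. Rps9, Rpl8, Rpl28, Rpl27a, Rpl29, Rps12, Rpl18, Rpl12, Rpl13 and 10 more, named after their values were seen, fell by 0.17 to 0.34. Rpl7l1, a nucleolar relative of Rpl7, rose by 0.21 (adjusted p = 0.00634, edgeR), with 5 of 6 livers above every control. Rpl39 rose by 0.23, Rpl36a by 0.21 and Rpl30 by 0.20, with 3 or 4 of 6 livers above every control, and none of these 3 was called with GC-corrected offsets. Rpl5 (0.05), Rpl11 (-0.06) and Rps6 (-0.02) were not called. Rps19bp1, a nucleolar partner of Rps19, changed by 0.19 and Rpl36al by 0.09, neither called.

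Genes that make and use ribosomes were counted beside the members. With DCA, of 31 ribosome biogenesis genes, 6, 11 and 15 rose at 1, 2 and 3.5 g/L, and 0, 1 and 1 fell, with a median change of 0.29 at 3.5 g/L. Over all genes 4.11%, 15.5% and 21.9% were called higher at these doses. Nop58, the core protein of box C/D small nucleolar ribonucleoproteins, rose by 0.73 ± 0.13 (adjusted p = 0.000105, edgeR), and Tsr1, a small-subunit maturation factor, by 0.47 ± 0.09 (adjusted p = 9.6e-05). Of 26 translation factors and other TOP messenger RNAs, 12 rose and 2 fell at 3.5 g/L, beside 21.9% and 21.1% of all genes. Eif3a (0.36) and Eif3m (0.52), subunits of the initiation factor eIF3, had the smallest adjusted p among those that rose, and Eef2, the translocation factor that binds the stalk, fell by 0.42 (adjusted p = 0.000172). Eef2 was named after its value was seen. Of 16 mTORC1 pathway genes 1 rose, Mtor (0.31), and 2 fell, the mTORC1 inhibitors Sesn1 (-0.49) and Tsc1 (-0.26). Rack1 (listed as Gnb2l1), a small-subunit protein outside the symbol rule, fell by 0.22 (adjusted p = 0.00283), and Fau, outside it too, differed by 0.10 and was not called (adjusted p = 0.273).

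With DEHP the calls in these lists were counted too, beside the shares of all genes. Of the biogenesis genes 1 rose at 6000 ppm in frozen liver (Nhp2, of box H/ACA particles, 0.60) and 1 fell (Nop16, -0.39), and none of the 26 translation factors was called there. Over all genes 7.05% were called higher in that comparison, and 652 of 13802 lower. At 3000 ppm in frozen liver 4 of the 26 rose, beside 8.17% of all genes, and were Eef1b2 (0.40), Eif3m (0.52), Tpt1 (0.33) and Eif4a2 (0.46). At 6000 ppm in FFPE liver 2 rose, beside 7.94%, the elongation factor 1 subunits Eef1b2 (0.45) and Eef1g (0.37). The mTORC1 list had 1 call at 6000 ppm in frozen liver, Mtor, at 0.47 ± 0.10 (adjusted p = 0.00522, edgeR). Also called in frozen liver were Mtor (0.38) at 1500 ppm and Rheb (0.39) and Deptor (-0.48) at 3000 ppm. Over all genes 4.34% and 8.17% were called higher at these doses, and 895 of 13802 lower at 3000 ppm. At 6000 ppm in FFPE liver the mTORC1 genes Sesn1 (0.61), Rps6ka1 (0.58) and Mtor (0.48) rose, beside 7.94% of all genes called higher. Further calls among the biogenesis genes were Myc (2.91) at 1500 ppm and Ubtf (-0.30) at 3000 ppm in frozen liver, and Nhp2 (0.91) at 6000 ppm in FFPE liver. The lists were compared with members by counts only.

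Some markers of Kupffer cells, endothelium and hepatocytes also fell at 3.5 g/L DCA. Of 8 Kupffer cell markers, 7 were called lower, beside 21.1% of all genes, with sums of 251 to 344 CPM in controls and 131 to 195 CPM at 3.5 g/L. Of 6 endothelial markers, 3 were lower (393 to 458 CPM against 344 to 377 CPM). Of 6 hepatocyte markers, 4 were lower (84863 to 105524 CPM against 62823 to 81570 CPM). Their part in the changes of the members was not tested.

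In FFPE liver of the DCA animals no member was called at any dose by edgeR or DESeq2, beside 0.126%, 0.335% and 0.293% of all genes called in either direction at 1, 2 and 3.5 g/L. The number with an unadjusted p under 0.05 was 0, 4 and 3 of 76. The median change was -0.43, -0.76 and -0.9998 over members, against -0.27, -0.67 and -0.68 over all genes tested. Rplp0 shows the scatter: its controls were at 71.9 to 171 CPM, and its 3.5 g/L livers were at 61.7, 23.3, 81.0, 48.0, 0 and 116 CPM. All FFPE controls share 1 prefix of the column names and held 2167550 to 8434620 counts. All FFPE livers at 2 and 3.5 g/L have another prefix and held 109292 to 653011 counts. At these 2 doses, dose thus cannot be told apart from prefix and depth. Why no member was called was not tested.

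FFPE and frozen liver were compared in the controls, with each animal as its own partner. Lobe differed along with preparation, and so did the prefix of the column names in every control animal but 45C. Fixation cannot be told apart from these. In DEHP controls 44 of 83 members were lower in FFPE than in frozen liver and 1 was higher, beside 16.7% and 14.6% of all genes. The median difference was -0.29 over members and 0.00 over all genes. In all 4 animals 55 of 83 members were lower in FFPE, beside 29.4% of all genes. Without the block 29 were called lower and none higher, and without animal 45C 17 were called, with no share of all genes given for either.

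**Figure D4:**
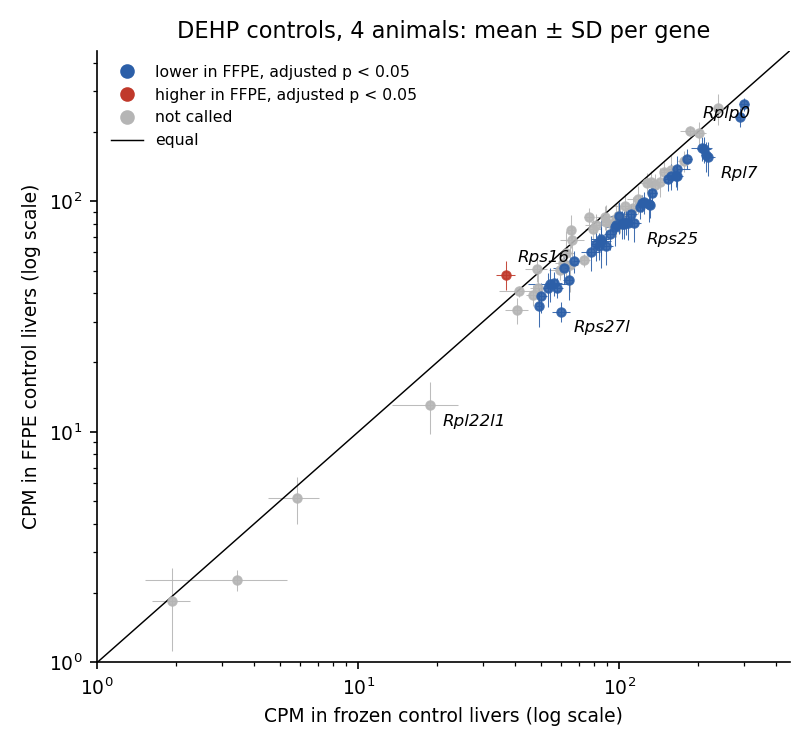
Mean CPM ± SD of each ribosomal protein gene in frozen (horizontal axis, log scale) and FFPE (vertical axis, log scale) control livers of the 4 DEHP control animals, coloured by the paired test, with the line of equal values. Most genes lie below the line (Rps27l 59.8 against 33.3 CPM), and Rps16 is the red point above it.

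Rps27l had the largest called difference, at 59.8 ± 4.7 CPM in frozen and 33.3 ± 3.4 CPM in FFPE controls (SD, n = 4), lower in 4 of 4 animals (-0.85 ± 0.14, edgeR). Rps25 (-0.52), Rpl7 (-0.51), Rpl36a (-0.50) and Rpl38 (-0.50) came next, all lower in 4 of 4 animals. Rpl36al differed by -0.49, Rps6 by -0.45, Rpl11 by -0.39, Rpl5 by -0.29 and Rpl3 by -0.28. Rps16 was the call in the other direction, at 36.7 ± 3.1 CPM in frozen and 48.1 ± 6.8 CPM in FFPE controls, higher in 4 of 4 animals (0.38 ± 0.14, adjusted p = 0.0397, edgeR). The stalk genes were not called, at 0.12 for Rplp0, 0.15 for Rplp1 and 0.00 for Rplp2, and Rpsa differed by -0.03.

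Transcript length and GC content went with the difference. With the other genes split by transcript length into 4 equal groups, their median difference was -0.19 in the shortest group, then -0.03, 0.05 and 0.11, and 74 of 83 members were as short as the first group. GC content went with the difference at r = 0.31 over members and r = 0.37 over the other genes. Whether members differ beyond their length was not tested.

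In DCA controls no member was called between preparations by edgeR or DESeq2, beside 1.78% of all genes, and 14 of 83 had an unadjusted p under 0.05. The median difference was -0.995 over members and -0.62 over all genes. Rpl22l1 differed by -2.76 and Rps27l by -1.93, each lower in 6 of 6 animals and not called. For the difference of the 3.5 g/L change between preparations, no member was called by either tool, beside 0.0607% of all genes, and 12 of 83 had an unadjusted p under 0.05. The median was -1.71 over members and -1.68 over all genes.

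The top-dose changes of the 2 chemicals in frozen liver were compared in 1 fit, each against its own controls. They differed in 20 of 81 members, all 20 higher with DEHP, beside 6.48% of all genes. The median difference was 0.26 over members and 0.02 over all genes. Rpl22l1 had the largest, at 1.30 ± 0.25 (0.73 with DEHP and -0.55 with DCA, adjusted p = 0.000648, edgeR). Rplp1 followed with 1.18 ± 0.23 (0.40 and -0.76) and Rplp2 with 0.91 ± 0.22 (0.27 and -0.62).

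Rpl13 (0.63), Rpl12 (0.61), Rps10 (0.59), Rps26 (0.59), Rplp0 (0.49), Rps16 (0.40), Rpl3 (0.36) and Rpl11 (0.36) were among the other differences. Of the 20 genes, Rps16 alone had a negative change with both chemicals (-0.03 and -0.41). Rps27l and Rpl36a were not among the 20. Without animal 29B of the DEHP livers the count was 32 and without 8C it was 13. Rpl36a was the only member called in frozen liver at 6000 ppm DEHP, so none of the 20 was called there. All frozen DCA controls carry another L code in the column names than the 3.5 g/L livers. The DCA part of each difference thus cannot be told apart from that code. The route, the year of the livers and the column name prefixes differ between the studies, so the chemical cannot be told apart from these either.

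**Figure D5:**
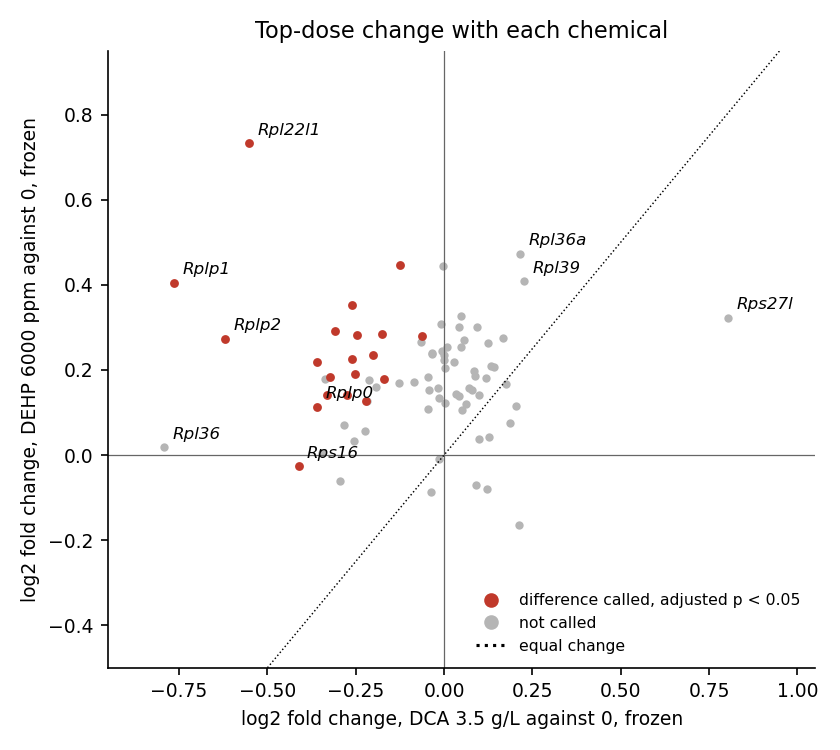
Log2 change at 3.5 g/L DCA (horizontal axis) and at 6000 ppm DEHP (vertical axis) in frozen liver, with 1 point per ribosomal protein gene and the dotted line marking equal change. Red points are the 20 genes whose changes differ, and all lie above the line, with Rpl22l1 (0.73 with DEHP, -0.55 with DCA) farthest from it.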

How the data were processed

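Both preparations of liver from 16 DEHP animals and 24 DCA animals were sequenced with a stranded total RNA kit after ribosomal RNA depletion, from 100 ng of RNA, per the labels. Reads were handled with CASAVA, STAR 2.4 and RSEM against mm10, per the submitters' processing notes. The values tested are the authors' deposited expected counts from RSEM, which carry no normalisation and were rounded to whole numbers here. The deposited FPKM tables of the authors were used only for levels between genes in controls. CPM values are scaled with TMM.

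The 4 dose groups of a chemical and preparation entered 1 fit in edgeR 4.0.16 under R 4.3.3, with limma 3.58.1, using filterByExpr (minimum count 10), TMM and the quasi-likelihood test. The SE is the log2 change divided by the square root of F. FFPE and frozen libraries were compared with a replicate block for animal. A joint fit of the frozen libraries compared the chemicals. The dose fit was tested on simulated counts for frozen liver at the top dose of each chemical. The FFPE fits, the fits with a replicate block and the joint fit were not tested in this way.

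Pairing follows the animal named in the labels. The deviations of a frozen library from its dose mean correlated best with those of the same animal's FFPE library in 13 of 16 DEHP animals and 11 of 24 DCA animals, with a median r of 0.388 and 0.0414 over 13445 and 4761 genes.

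The members and lists were chosen with earlier results of these data known. Named by rule were the called members of smallest adjusted p at each top dose (4 per direction frozen, 2 FFPE), the 4 largest called differences per direction between preparations, the stalk genes, Rpsa, Rps6, Rpl3, Rpl5, Rpl11, the relatives listed in the opening, Rpl22 and Rps27, and the 2 called genes of smallest adjusted p of each list. Other names were chosen after their values were seen.

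Alternatives were DESeq2 1.42.0, its size factors, upper-quartile factors, TMM without members, Rn45s removed, no filter on low counts, a filter at 1 CPM with 10 counts, the second set of deposited count tables, 2-group fits, the prefix of the column names (read as a sequencing run) as a term, no replicate block and each library left out. GC-corrected offsets (20 bins of GC content), leaving out 3 shallow libraries and the comparison within 1 L code of the column names were chosen after seeing the data. Nothing in the labels says that the animals shared litters or cages, and p-values measure the spread between animals. Some results are not reported here.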

Additional observations from a re-analysis of the deposited data

Results flagged for a closer look

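In 15 of 172 groups of 4 to 6 libraries checked by Dixon's test, the highest or lowest library stood apart from the others. Chance gives about 1 in 20 such groups. In frozen DEHP liver at 6000 ppm animal 29B stood low for Rpl36a (53.3 CPM, next 74.9), Rps27l (55.8, next 83.9) and Rpl30 (70.4, next 91.3). At 3000 ppm animal 71A stood low for Rplp0 (162 CPM) and Rps26 (39.7 CPM), and animal 67C stood high for Rpl22l1 (59.7 CPM, next 34.4). At 1500 ppm animal 3A stood low for Rplp0 (157 CPM) and Rpl41 (86.1 CPM). The control 75A stood low for Rpl36 (36.5 CPM) and Rpl22l1 (11.4 CPM). In FFPE liver at 1500 ppm animal 72B had the lowest share of counts on members (0.745%, next 0.777%).

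In frozen DCA liver at 1 g/L animal 49 stood high for Rplp2 (56.0 CPM, next 36.6) and Rps16 (55.2 CPM, next 48.4). Rps27l was low in animal 77 at 2 g/L (58.4 CPM) and high in animal 99 at 3.5 g/L (89.0 CPM).

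The change at the top dose differed between DEHP and DCA in frozen liver, by the test of the difference itself, for 11 of the members named by the rule or beside it. On the log2 scale, DEHP minus DCA, the differences were 1.30 for Rpl22l1, 1.18 for Rplp1, 0.91 for Rplp2, 0.63 for Rpl13, 0.61 for Rpl12, 0.59 for Rps10 and 0.59 for Rps26. They were 0.49 for Rplp0, 0.40 for Rps16, 0.36 for Rpl3 and 0.36 for Rpl11.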

How the results depend on the processing

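Over the alternatives, 450 counts of called members stayed within 1.5 times the value given and 81 did not. The share of all genes called is not given for any alternative, so these counts describe members only. For single genes, 2113 values kept direction and call, 268 kept direction and lost the call, and 1 changed sign, Rps10 at 1 g/L DCA with GC-corrected offsets (0.0207, adjusted p = 0.931, edgeR). DESeq2 called 13 members at 3000 ppm and 3 at 6000 ppm DEHP in frozen liver, and 10 and 26 in FFPE liver. GC-corrected offsets gave 2 at 6000 ppm frozen, 2, 10 and 26 over the FFPE doses of DEHP, 7 at 1 g/L DCA frozen and 1 at 2 g/L DCA FFPE. The other count tables gave 11 and 3 in frozen and 0, 1 and 7 in FFPE DEHP liver. The prefix of the column names as a term gave 0 at 3000 ppm and 3 at 6000 ppm frozen, 2 at 3000 ppm FFPE and 3 (all higher) at 1 g/L DCA frozen. In frozen DCA liver this term sets apart only animals 53 and 54, both at 1 g/L. Fits of the 2 groups alone gave 0 at 6000 ppm frozen and 0, 0 and 4 over the FFPE doses of DEHP. Without a filter the counts were 0 and 10 at 1500 and 6000 ppm FFPE and 1 at 2 g/L DCA FFPE. At 1500 ppm FFPE the count was 0 with DESeq2 size factors, upper-quartile scaling or Rn45s removed. Excluding 3 shallow libraries gave 3 at 2 g/L DCA frozen. No replicate block gave 29 and 3 for FFPE against frozen in DEHP and DCA controls, and the block changed no other count of calls by over 1.5 times. The cause was not tested.

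Leaving out 1 library gave 3 to 14 and 0 to 17 members at 3000 and 6000 ppm frozen, and 0 to 1, 1 to 5 and 6 to 16 over the FFPE doses of DEHP. It gave 4 to 20, 4 to 14 and 27 to 34 at 1, 2 and 3.5 g/L DCA frozen, and 0 to 1 at 2 g/L DCA FFPE. Leaving out 1 animal gave 17 to 50 for DEHP FFPE against frozen, and 1 library 13 to 32 for the chemicals. At 1 g/L the count was 20 without animal 49 and 4 without 52, at 2 g/L 14 without 77 and 4 without 73, and for the DEHP preparations 17 without 45C. Upper-quartile scaling gave no value in DCA FFPE. The DCA FFPE libraries held a median of 504136 counts, and the part of depth in their lack of calls was not tested.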
